A study of Mus musculus with 16 samples.

Results

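A peak in methylated RNA immunoprecipitation sequencing (MeRIP-seq) is a stretch of transcript where fragments caught by an antibody to N6-methyladenosine (m6A) pile up. The peaks described here lay in protein-coding sequence (CDS) only: every transcript region listed for the peak was CDS, and none touched a start codon, a stop codon or an untranslated region. Of 7069 distinct peaks, 2063 (29.2%) met this rule, which used the annotation and no measured value. They lay in 1316 genes; 2052 peaks belonged to 1 gene and 11 to 2 genes. A further 181 peaks were listed as CDS for one gene and without a region for another, and were not counted.

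The cells were peritoneal macrophages (PMs) elicited with thioglycolate from wild-type (WT) mice and from mice lacking the adaptor protein ADAP (Adap-/-), which is encoded by Fyb1. ADAP is known as an adaptor of immune-receptor and integrin signaling. PMs were mock-treated or treated with lipopolysaccharide (LPS), a bacterial ligand of Toll-like receptor 4, at 1 ug/ml for 6 h. This gave 4 groups: mock-treated WT, LPS-treated WT, mock-treated Adap-/- and LPS-treated Adap-/-. Each group held 2 replicates, and the fragmented RNA of a replicate was split into an immunoprecipitated (IP) and an input library, 16 libraries in all. The sources used here do not say whether the replicates came from separate mice, so p-values measure only the spread between these samples, which may be technical. Mice were C57BL/6 littermates matched for sex and aged 6 to 8 weeks, and whether animals were pooled is not given in the sources used here.

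m6A is set on nuclear RNA by a writer complex around METTL3 and METTL14, with WTAP, VIRMA and ZC3H13 among its partners. It is removed by FTO and ALKBH5 and bound by YTH-domain proteins, of which the YTHDF proteins act in the cytoplasm and are best known for speeding mRNA decay. Most m6A lies near stop codons and in the 3' untranslated region (3'UTR), and long internal exons hold much of the m6A inside coding sequence. In macrophages many transcripts made after LPS, among them those of cytokines and interferon-stimulated genes, are short-lived.

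CDS peaks were short and often came in groups along 1 transcript. Their median genomic length was 175 bases (interquartile range 125 to 300), and 148 (7.17%) spanned over 1000 bases. Of the 1300 genes with a CDS peak that belonged to them alone, 885 had 1 such peak, 415 had 2 or more and 37 had 5 or more. These 37 genes held 229 peaks. Of 752 neighbouring pairs within a gene, 66 were 25 bases apart, so adjacent peaks can be pieces of 1 enriched stretch. In 687 genes every peak was a CDS peak, and 460 genes also had a peak at the stop codon.

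IP libraries held 5728590 to 19030373 reads on all peaks (median 10378793) and input libraries 2121313 to 4325961 (median 2883046.5). CDS peaks took 18.6 to 20.7% of the IP reads. Their share of the input was 21.5 to 24.0% in mock-treated and 18.2 to 19.1% in LPS-treated PMs, without overlap. A CDS peak had a median of 378 IP and 77.1 input reads per library. In all, 1433 CDS peaks had at least 20 reads in every input library, and 80 averaged fewer than 10 input reads. Reads carried no molecular identifiers, so a bound or interval given below covers at most counting error. A bound sets a group without reads at 3 counts and takes the other counts as observed. Of 10 defining macrophage markers, 8 had a peak, with a summed input of 13400 to 15900 CPM (read counts scaled to library size). Markers of other cells were sparse: neutrophils 1 of 12 (Csf3r, 186 to 493 CPM), B cells 1 of 10 (Cd22, 42.6 to 224 CPM), mesothelial cells and fibroblasts 2 of 13 (51.9 to 110 CPM), T and NK cells 0 of 15, and eosinophils and mast cells 0 of 11. The table holds peaks only, so a marker without a peak has no level here. In bulk RNA, fewer cells of a type and less RNA per cell cannot be told apart.

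The targeted gene checked the labels. Fyb1 had 2 CDS peaks. In input the first (chromosome 15, 6609828 to 6610128) had 206 and 209 CPM in mock-treated WT, 251 and 277 CPM in LPS-treated WT, and 0.388, 0, 0.369 and 0 CPM in the Adap-/- replicates. The second had 98.4 to 129 CPM in WT and 0.388 to 1.84 CPM in Adap-/-. Every input library matched its labelled genotype at these peaks. IP reads at the first peak were 1174 to 3967 in WT and 0 in 3 Adap-/- replicates, but 59 in mock-treated Adap-/- replicate 1, which also held 42 at the second.

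A pair of mock-treated IP libraries stood apart. On the 227 CDS peaks whose input rose over 4-fold with LPS in both genotypes, summed IP CPM was 30014 in mock-treated WT replicate 1 and 26195 in mock-treated Adap-/- replicate 2. It was 5922 in WT replicate 2 and 7100 in Adap-/- replicate 1. LPS-treated IP libraries lay between 51026 and 56688. The mock-treated input libraries did not split this way (9835 to 13564), against 131437 to 157271 after LPS. The 2 libraries thus held more IP reads of LPS-induced transcripts than their own input. Most comparisons of the ratio are therefore also given without these replicates.

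Capture was measured as the log2 ratio of IP CPM to input CPM at a peak, with libraries scaled so that the average peak of each library sat near 0. The scale shows a peak against other peaks, and a change common to all peaks cannot be seen on it. The class medians of CDS and stop codon peaks lay close together. The CDS median was −0.10 and −0.12 in the mock-treated WT replicates, −0.09 and −0.02 in mock-treated Adap-/-, 0.10 and 0.15 in LPS-treated WT, and 0.10 and 0.09 in LPS-treated Adap-/-. All 4 LPS-treated replicates lay above all 4 mock-treated ones. The median of the 2085 stop codon peaks stayed between 0.025 and 0.105.

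**Figure D1:**
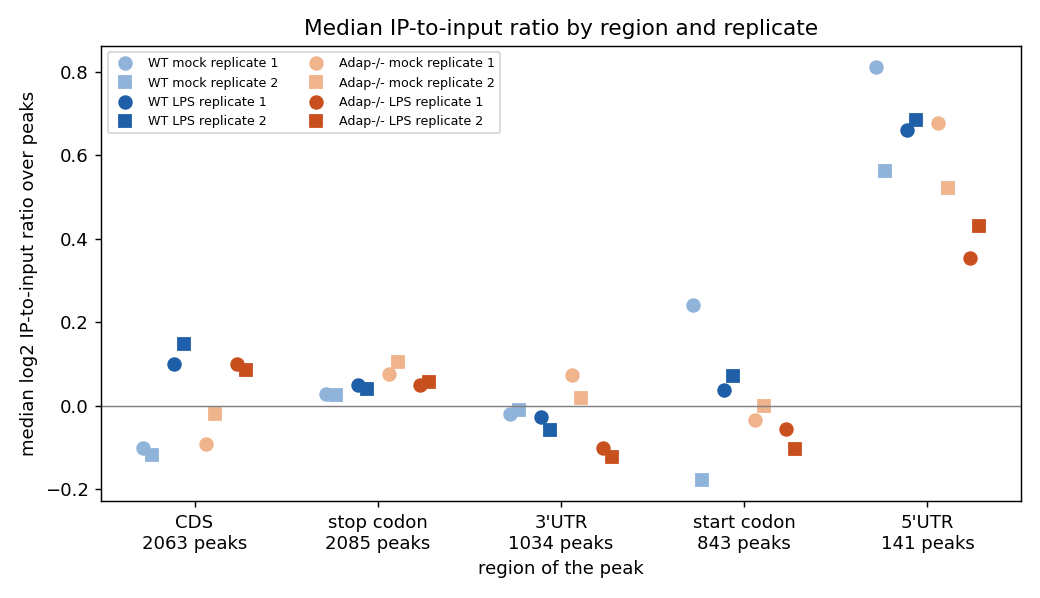
Median log2 ratio of IP to input CPM (vertical axis) in each of the 8 replicates, grouped by genotype and treatment, for CDS, stop codon, 3'UTR, start codon and 5'UTR peaks. The CDS median lies below 0 in the 4 mock-treated and above 0 in the 4 LPS-treated replicates.

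Over the 8 replicates the CDS median minus the stop codon median was −0.04 ± 0.11 (SD, n = 8; negative in 4 and positive in 4), with p = 0.32 in an exact two-sided sign-flip test. Against the 1034 3'UTR peaks the difference was 0.04 ± 0.16 (p = 0.43, the same exact test), and against the 843 start codon peaks 0.02 ± 0.17 (p = 0.812, exact). These means pool treatments: the 3'UTR difference was −0.164 to −0.037 in mock-treated and 0.125 to 0.208 in LPS-treated replicates. The start codon difference was −0.344 to 0.062 and 0.063 to 0.191 in the same order. Neither of these shifts with treatment was tested. With only peaks of at least 20 reads in every input library, CDS peaks exceeded start codon peaks by 0.28 (exact p = 0.0156). The CDS-minus-stop difference moved with treatment: it was −0.12 to −0.17 in mock-treated and 0.03 to 0.11 in LPS-treated replicates. The shift was 0.20, with exact two-sided permutation p = 0.0286 for 4 against 4 replicates, which is the smallest p this design allows. Adjusted over the 6 class comparisons computed, that p was 0.0858. Without the mock-treated pair that stood apart the shift was 0.21 (exact p = 0.133). For genotype the shift was −0.03 (exact p = 0.657), and its sign turned when some single replicates were left out. Without that pair the differences from stop codon, 3'UTR and start codon peaks were −0.01 (exact p = 0.812), 0.08 (exact p = 0.281) and 0.08 (exact p = 0.0625), and the genotype shift was −0.04 (exact p = 0.6).

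Within a gene the median difference had 1 sign in all replicates, although many genes ran the other way. In the 460 genes with both kinds of peak, the median of the CDS minus the stop codon ratio was −0.35 to −0.11 on the log2 scale over the 8 replicates. In a replicate 252 to 299 of the genes (54.8 to 65.0%) had the lower ratio on the CDS side. The mean difference was −0.21 ± 0.09 (SD, n = 8), with exact sign-flip p = 0.00781, the smallest p possible, and 0.0469 after adjustment over the 6 class comparisons. Leaving out any 1 replicate kept it between −0.22 and −0.19, and without the mock-treated pair that stood apart it was −0.21 (negative in 6 of 6, exact p = 0.0312). Both parts of the ratio had a lower median on the CDS side: IP level by 0.38 to 0.56 and input level by 0.16 to 0.28. In 109 genes the CDS side was the lower in all 8 replicates, and in 38 it was the higher. Where both peaks had at least 20 reads in every input, these counts were 99 and 34 of 335.

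**Figure D2:**
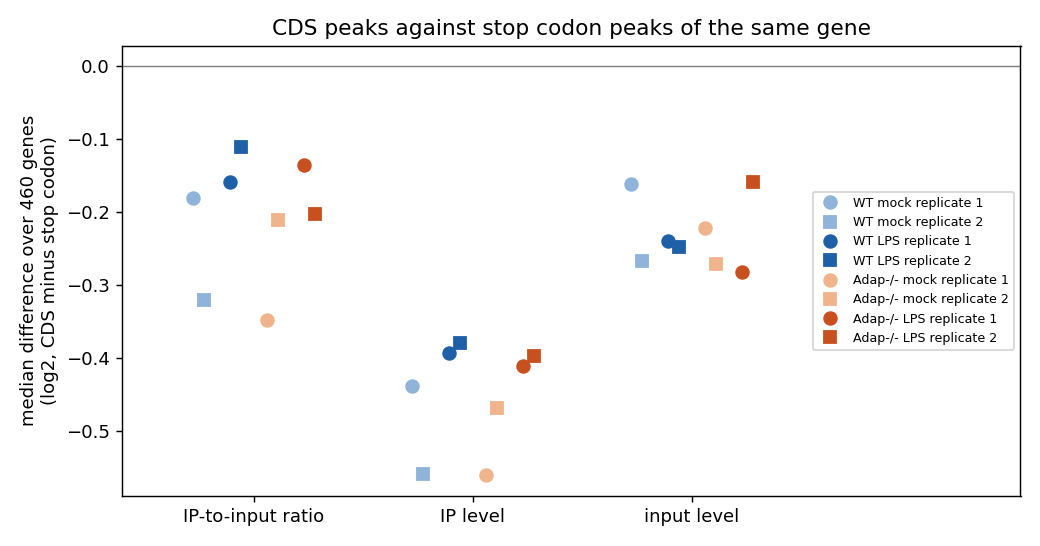
Median over 460 genes of the CDS value minus the stop codon value of the same gene (log2, vertical axis), for the IP-to-input ratio, the IP level and the input level, with 1 point for each of the 8 replicates. All points lie below 0, and the IP differences (−0.56 to −0.38) lie below the input differences (−0.28 to −0.16).

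Some genes ran strongly one way or the other. The genes named in this paragraph were chosen after their values were seen, as those of the 335 whose least extreme replicate was farthest from 0. Ptafr, the receptor for platelet-activating factor, had a CDS-minus-stop difference of −2.81 to −1.58. Zbtb7a, a zinc-finger repressor, ran from −2.32 to −1.504, and Kat6a, a histone acetyltransferase, from −2.02 to −1.47. Dcaf5, Mfsd5 and Tshz1 made up the lowest 6. In the other direction Bhlhe40, a transcription factor of macrophage activation, had its coding peak above its stop codon peak by 1.96 to 2.91. Its CDS peaks had a median ratio of 1.78 and its stop codon side −0.73. Zbtb18, a zinc-finger repressor, followed with 0.983 to 1.80, then Selplg, the ligand of P-selectin (0.975 to 2.11), and Zc3h13 (0.90 to 2.50). ZC3H13 is itself a partner of the m6A writer. Zmym2 and Zc3h18, zinc-finger proteins of chromatin and RNA processing, completed the highest 6.

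The most captured CDS peaks were those whose lowest replicate was highest among the 1425 single-gene peaks with at least 20 reads in every input. Urgcp, named as an upregulator of cell proliferation, led with log2 ratios of 1.56 and 2.11 (mock-treated WT), 1.67 and 2.198 (LPS-treated WT), 1.89 and 1.90 (mock-treated Adap-/-) and 2.61 and 2.44 (LPS-treated Adap-/-). The peak lay on chromosome 11 at 5666449 to 5666774 (minus strand) and held 905 to 5688 IP reads against 90 to 186 input reads. Its IP share was thus 2.96 to 6.10 times its input share, in all 8 replicates. Spen, a transcriptional co-repressor, had a peak at 1.27 to 2.45, and Heca, a cell-cycle regulator by its description, at 1.24 to 2.32.

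Immune regulators were among these peaks too. Helz2, a helicase and transcriptional coactivator, lay at 1.16 to 2.0 although its input ranged from 63 to 1090 reads across treatments. Trim56, a ubiquitin ligase of antiviral signaling, lay at 1.15 to 1.67. The Bhlhe40 coding peak (chromosome 6, 108641643 to 108642018, plus strand) held 5504 to 46294 IP reads against 431 to 1806 input reads, and its ratio was 1.11 to 2.11. Xiap, an inhibitor of caspases, lay at 1.05 to 1.82 and Naa30, a catalytic subunit of an N-terminal acetyltransferase, at 1.03 to 1.85. Ranges of neighbouring members in this order overlapped.

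At the other end lay abundant transcripts. Gpnmb, a transmembrane glycoprotein plentiful in these macrophages, had a CDS peak with 61173 to 146936 input reads and a ratio of −1.75 to −0.99. Tubb2a, a beta tubulin, lay at −1.81 to −0.98. Csf2rb2, a beta chain of cytokine receptors, lay at −2.10 to −0.97 and Tlr13, a sensor of bacterial ribosomal RNA, at −1.98 to −0.97. The ratio fell with the input level across CDS peaks: by quartile of mean input its median over replicates was 0.59, 0.05, −0.14 and −0.51. By length it was −0.17 for peaks of 125 bases or fewer, −0.02 for 126 to 250, 0.28 for 251 to 1000 and −0.11 above 1000 bases. Input level is part of the ratio, so these are descriptions across peaks with no test.

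Peaks along 1 coding sequence differed in capture. In the 123 genes with 3 or more CDS peaks, the highest and lowest peak were a median of 0.83 apart on the log2 scale. In 29 of them the highest peak in its lowest replicate exceeded the lowest peak in its highest replicate. Besides Urgcp, where this gap was 1.49, they included the genes of the giant scaffold proteins Ahnak2 (0.99) and Ahnak (0.92), of the repressor Cic (0.94) and of the splicing cofactor Son (0.80).

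The genes with the most CDS peaks showed the range. Ahnak had 15, whose medians over replicates ran from −1.79 to 0.67, and none of its peaks lay outside coding sequence. Ahnak2 had 10 (−0.90 to 1.48), Spen 9 (−0.56 to 1.87), Rnf213, a giant ubiquitin ligase induced by interferon, 9 (−2.77 to 0.37) and Plec, the cytolinker plectin, 8 (−0.92 to 0.13). Input reads moved together along Ahnak and Rnf213. After LPS all 15 Ahnak peaks fell in both genotypes, with a median log2 change of −0.70 in WT and −0.98 in Adap-/-. All 9 Rnf213 peaks rose in both, by a median of 3.88 and 3.07. Of the Ahnak2 peaks 1 of 10 fell in WT and 2 in Adap-/-, of the Spen peaks 2 of 9 and 5 of 9, and of the 8 Plec peaks none was called in either genotype.

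Zinc-finger genes of the C2H2 family were a large group. Their proteins bind DNA through arrays of zinc fingers, often encoded together in 1 long exon. By the transcription factor family given in the table they held 150 CDS peaks (7.27% of CDS peaks) and 80 stop codon peaks (3.84% of those). The median ratio of the 150 exceeded that of the other 1913 CDS peaks in each of the 8 replicates, by 0.21 to 0.51. Reads shared by near-identical family members could be split between them by the counting, which is not described for such reads. A list by symbol, which also takes in other zinc-finger proteins (101 genes, 147 peaks), had 78 peaks above 0 in all 4 LPS-treated replicates and 8 below, beside 687 and 511 of all 2063 CDS peaks.

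Groups of genes were then read by their median ratio and by how many peaks stood above or below 0 in all 4 LPS-treated replicates. Chromatin regulators (52 genes, 126 peaks) had a median of 0.25 to 0.30 after LPS, with 53 peaks above and 11 below 0. Interferon-stimulated genes (33 genes, 82 peaks) stood lowest of the larger lists, with a median of −1.18 to −1.07 and 73 of 82 peaks below 0 in all 4 LPS-treated replicates. In mock-treated PMs their median was 1.62 and 1.00 in the pair of libraries that stood apart and −0.74 and −0.88 in the others. For 8 CDS peaks of 7 cytokine and chemokine genes the median after LPS was −1.83 to −1.52, and for 32 peaks of 14 Toll-like receptor and NF-kB genes −0.58 to −0.38. All CDS peaks had 0.09 to 0.15. Most peaks of the interferon, cytokine and Toll-like receptor lists had higher input after LPS, and the ratio was lower at higher input. The part of input level in the list values was not tested.

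**Figure D3:**
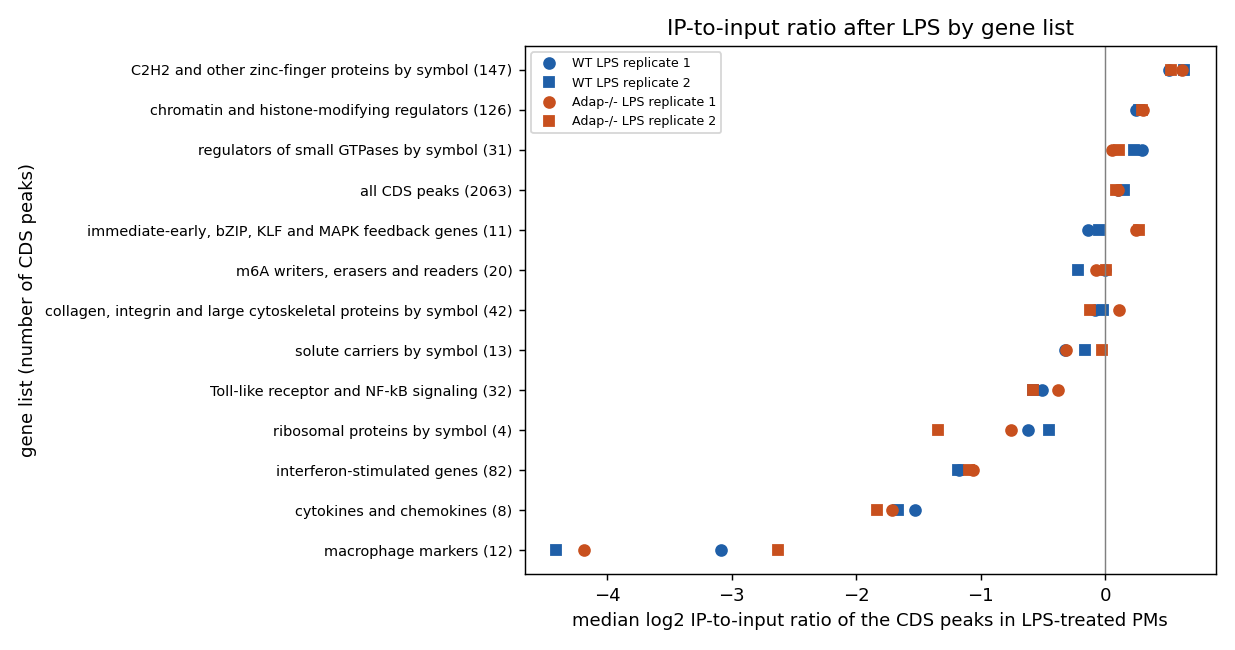
Median log2 ratio of IP to input CPM over the CDS peaks of each gene list (horizontal axis; lists of 4 or more peaks), with 1 point for each of the 4 LPS-treated replicates. Zinc-finger genes (0.51 to 0.63) and chromatin regulators (0.25 to 0.30) lie above all CDS peaks (0.09 to 0.15), and interferon-stimulated genes (−1.18 to −1.07) and cytokines (−1.83 to −1.52) below.

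Whether ADAP loss changes m6A capture was asked by comparing the ratio between genotypes. After LPS no CDS peak of 2063 passed an adjusted p of 0.05 in edgeR's quasi-likelihood test, against 0.0142% of all 7058 peaks tested. At an unadjusted p below 0.05 there were 142 (70 higher and 72 lower in Adap-/-; 6.88% beside 7.13% of all peaks), and DESeq2 called 6, all lower (0.411% of all peaks). In mock-treated PMs edgeR and DESeq2 called 0 (background 0% for both), with 50 at an unadjusted p below 0.05 (26 higher, 24 lower; 2.42% beside 2.1%). The difference of the LPS response between genotypes gave 0 in edgeR (background 0%), 63 unadjusted (33 and 30; 3.05% beside 3.23%) and 3 in DESeq2 (0.0992%). Without the pair of mock-treated replicates that stood apart, edgeR called 0 in all 3 comparisons (background 0%), with 216, 58 and 96 at an unadjusted p below 0.05 (10.5, 2.81 and 4.65%, beside 11.6, 2.92 and 4.93% of all peaks), and DESeq2 called 8, 3 and 7 (0.524, 0.212 and 0.255% of all peaks). Without that pair, more of the CDS peaks at an unadjusted p below 0.05 in edgeR were higher than lower in each of the 3 comparisons. DESeq2 did not share this lean throughout. At an unadjusted p below 0.05 it had as many higher as lower after LPS, more higher in mock-treated PMs and more lower for the difference. The split by direction over all peaks is not given here. Each mock-treated group then held a single replicate. In simulated data for the comparison of LPS-treated PMs edgeR recovered 0 of 100 peaks changed 2-fold and 26 of 100 changed 4-fold, so changes of this size could be missed.

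The lowest unadjusted p-values for a lower ratio in LPS-treated Adap-/- fell on Arrb1, Tns1 and Idh1. The merged peaks were called on these same libraries, so a peak enriched in LPS-treated WT alone could enter the set through that group. The part of this choice in their lower ratio was not tested. The Arrb1 peak (beta-arrestin 1, a regulator of receptor signaling; chromosome 7, 99240586 to 99241741) had 96 and 73 IP reads in LPS-treated WT and 0 and 0 in LPS-treated Adap-/-. Its input was 15 and 9 reads in WT and 16 and 24 in Adap-/-. With a floor of 3 IP counts over the group and the input counts taken as observed, the ratio was 131-fold lower in Adap-/- (adjusted p = 0.0679). This fold is no lower bound, because it leaves out the counting error of the small input counts. In mock-treated PMs it held 90 and 67 IP reads in WT and 69 and 13 in Adap-/-, so the absence was seen in the LPS-treated pair alone.

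Tns1, which encodes the focal adhesion protein tensin 1, had the same pattern. Its peak on chromosome 1 (73964737 to 73964812) had 34 and 103 IP reads in LPS-treated WT and 0 and 0 in LPS-treated Adap-/-, with 7 and 2 against 6 and 5 input reads. By the same floor the ratio was 78.0-fold lower (adjusted p = 0.129), again with the few input reads taken as observed. Both transcripts fell with LPS in both genotypes, so few reads carried the comparison on the input side.

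Idh1, the cytosolic isocitrate dehydrogenase, had more reads. Its peak at chromosome 1, 65201080 to 65205419, had 586 and 543 IP reads in LPS-treated WT and 132 and 84 in LPS-treated Adap-/-, against 137 and 141 and 251 and 194 input reads. Log2 ratios were 0.66 and −0.80 in WT and −3.75 and −3.56 in Adap-/-, without overlap. The fitted difference was −3.74 (SE 0.70, adjusted p = 0.160). In mock-treated PMs the values were −2.36 and −4.50 in WT and −5.09 and −5.29 in Adap-/-. DESeq2 called all 3 peaks, and edgeR called all 3 when either mock-treated WT replicate was left out. All 3 genes had input lowered by LPS, and the IP libraries also differed on such transcripts as a group. On the 43 CDS peaks whose input fell over 4-fold with LPS in both genotypes, summed IP CPM was 783 and 533 in LPS-treated WT and 339 and 372 in LPS-treated Adap-/-, while summed input was 451 and 484 against 529 and 521 CPM. Their median log2 ratio was 1.04 and 0.60 in LPS-treated WT and 0.18 and −0.11 in LPS-treated Adap-/-. The 43 peaks include the 3 peaks themselves and other Idh1 peaks, so the group values are not independent of them. The Idh1 peak above gave 88.4 and 37.7 CPM of the IP sums in LPS-treated WT and 6.66 and 7.41 CPM in LPS-treated Adap-/-. The part of this difference between libraries in the result for the 3 peaks was not tested. At other CDS peaks of Idh1 the LPS-treated Adap-/- replicates lay far apart. The peak at 65200368 to 65201030 read 0.15 and −1.09 in LPS-treated WT and −3.78 and −1.34 in LPS-treated Adap-/- (edgeR adjusted p = 0.835). The peak at 65207733 to 65210162 read 0.05 and −0.75 against −7.34 and −2.025 (edgeR adjusted p = 0.74).

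**Figure D4:**
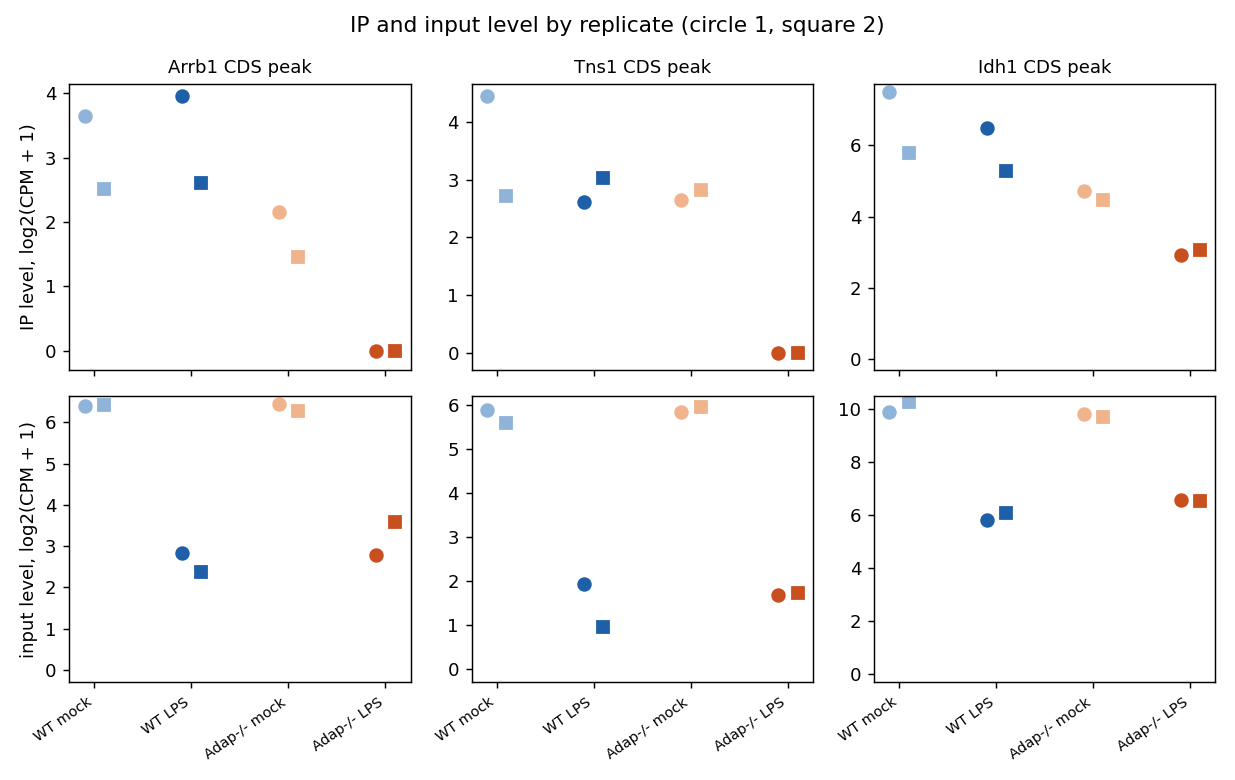
IP level (upper row) and input level (lower row), as log2(CPM + 1), at the Arrb1, Tns1 and Idh1 CDS peaks in each replicate of the 4 groups. IP signal is at 0 for Arrb1 and Tns1 in both LPS-treated Adap-/- replicates, where input is at the level of LPS-treated WT.

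Higher in LPS-treated Adap-/- were peaks of Dicer1, Pdcd2l and Fem1c, none past the adjusted threshold. Dicer1, the ribonuclease that makes microRNAs, had log2 ratios of −1.04 and −1.17 in LPS-treated WT and 0.22 and 0.63 in LPS-treated Adap-/- (difference 1.55, SE 0.40, adjusted p = 0.379). Its IP level was 13.9 and 15.1 against 31.3 and 38.3 CPM (92 and 217 against 621 and 434 reads in libraries of unlike depth). Its input was 28.9 and 34.2 against 26.9 and 24.6 CPM (71 and 73 against 73 and 53 reads), so the difference was mainly on the IP side. Pdcd2l, a homologue of a programmed-cell-death gene, differed by 1.33 (adjusted p = 0.525). Fem1c, a substrate receptor of a ubiquitin ligase, differed by 1.36 (adjusted p = 0.551). In mock-treated PMs the lowest unadjusted p-values fell on Fzd5, a Wnt receptor, Nlgn2, a synaptic adhesion protein, and Zfp251 (1.98, 2.05 and 3.09) and, below 0, on Setd1b, a histone methyltransferase, Idh1 and Tlr3, a receptor for double-stranded RNA (−1.57, −1.996 and −2.54). Each had an adjusted p of 1.

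Peaks of the m6A machinery itself were few: 20 CDS peaks in 8 genes. Ythdf1, a cytoplasmic m6A reader, had a peak with log2 ratios of −0.39 and −0.67 in mock-treated WT, −0.87 and −1.29 in LPS-treated WT, −1.59 and −1.0 in mock-treated Adap-/- and −0.45 and −0.71 in LPS-treated Adap-/-. The LPS response of this ratio thus differed by 1.27 (SE 0.38) between genotypes, with an adjusted p of 1. Pou3f1, a POU-domain transcription factor, had 2 CDS peaks whose ratio differed between LPS-treated Adap-/- and WT by 1.36 (SE 0.63, adjusted p = 0.701) and 0.77 (SE 1.23). At the first, input was 59.8 and 32.8 CPM in LPS-treated WT and 13.6 and 9.74 CPM in LPS-treated Adap-/- (log2 difference −1.98, edgeR adjusted p = 0.000184). Its IP level was 66.3 and 88.8 against 46.7 and 54.8 CPM, so the higher ratio came with lower input and not with more IP reads. Spry1, Cish and Cd300lb had no single-gene peak of this class.

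LPS itself moved no CDS ratio past an adjusted p of 0.05 in edgeR in either genotype (background 0% and 0%). At an unadjusted p below 0.05, WT had 269 CDS peaks (153 higher, 116 lower; 13% beside 10.8% of all peaks) and Adap-/- 293 (203 higher, 90 lower; 14.2% beside 11.5%). DESeq2 called 69 in WT (8 higher, 61 lower; background 2.85%) and 28 in Adap-/- (5 higher, 23 lower; 1.66%). The calls depended on the mock-treated replicates. Without the pair that stood apart edgeR called 22 in WT (4 higher, 18 lower; 1.07% beside 0.935% of all peaks) and 23 in Adap-/- (4 higher, 19 lower; 1.11% beside 1.43%), with 9 peaks of 4 genes in both, and DESeq2 called 42 and 48 (1.8% and 2.54% of all peaks). All 18 and all 19 lower peaks of edgeR lay on transcripts whose input rose over 4-fold.

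These low ratios belonged to genes that LPS switched on. The Nos2 peak at chromosome 11, 78830941 to 78840876 (inducible nitric oxide synthase) had input of 2 and 11 reads in mock-treated WT and 3030 and 4004 in LPS-treated WT. IP reads were 1433 and 283 before and 851 and 773 after. Its log2 ratio went from 7.47 and 2.05 to −3.26 and −5.12 in WT and from 3.01 and 6.86 to −4.69 and −3.28 in Adap-/- (adjusted p = 0.204 and 0.235). Mx2, an antiviral GTPase, went from 4.49 and 1.80 to −3.66 and −4.87 in WT (adjusted p = 0.204). Mock-treated input at these peaks was 1 to 11 reads, so the mock-treated ratio rests on counts too small for a fold. With the 2 libraries of an RNA sample tied as a block, 3 peaks passed in WT (Nos2, Mx2 and Ifi206) and 1 in Adap-/- (Nos2).

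Peaks with a higher ratio after LPS included Arrb1 and Idh1, at peaks described above. Arrb1 went from −2.82 and −4.11 to 1.21 and 0.25 in WT (difference 4.27, SE 0.83, adjusted p = 0.204), with input of 215 and 205 reads before and 15 and 9 after. Idh1 had a difference of 3.25 in WT (SE 0.69, adjusted p = 0.204). Ppp1r9b, which encodes the actin-binding spinophilin, went from −2.45 and −2.06 to −0.82 and −0.41 in WT (difference 1.62, SE 0.29, adjusted p = 0.204). Foxo4, a forkhead transcription factor, went from −1.48 and −1.33 to 1.12 and 1.22 in Adap-/- (2.64, SE 0.43, adjusted p = 0.230), while its input fell from 79 and 84 to 17 and 18 reads. A peak of Ahnak went from −1.77 and −1.84 to −0.53 and −0.22 in Adap-/- (1.42, SE 0.22, adjusted p = 0.230). In WT the same Ahnak peak read −1.30 and −1.34 before and −0.83 and −0.49 after.

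Input reads on a CDS peak measure the transcript rather than the mark, and LPS moved 51.8% of them in WT and 49.1% in Adap-/-. Of 2024 CDS peaks tested, 587 rose in WT (29.0%, beside 30.3% of all 6794 peaks) and 461 fell (22.8% beside 28.4%), in edgeR at an adjusted p of 0.05. In Adap-/- 543 rose (26.8% beside 29%) and 451 fell (22.3% beside 25.7%). In both genotypes 495 rose and 350 fell, and the comparisons used separate samples. Only 3 peaks were called in opposite directions (Flrt2, Fem1b and Phip).

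**Figure D5:**
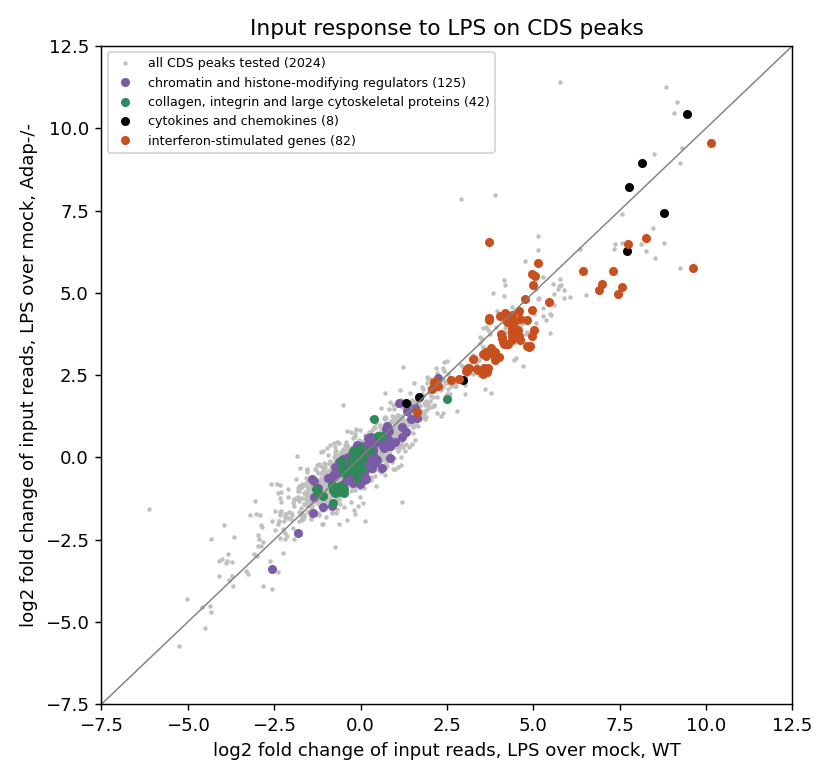
Log2 fold change of input reads with LPS in WT (horizontal axis) and in Adap-/- (vertical axis) for the 2024 CDS peaks tested (grey), with 4 gene lists in colour and the line of equal response. Points spread along the line, and all interferon-stimulated and cytokine peaks lie above 0 on both axes.

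Interferon-stimulated genes moved as 1 group: all 82 CDS peaks of 33 genes rose in both genotypes, with a median log2 change of 4.16 in WT and 3.59 in Adap-/- (−0.01 and −0.05 over all CDS peaks). Cmpk2, a mitochondrial nucleotide kinase beside the antiviral gene viperin, had a peak at 13.9 and 19.5 input CPM in mock-treated WT and 3440 and 3130 CPM after LPS. In Adap-/- the same peak went from 15.9 and 12.9 to 1180 and 1190 CPM. Mx1, an antiviral GTPase, went from 10.8 and 15.4 to 3370 and 4040 CPM in WT (log2 change 8.27, SE 0.20). Ifi44 had no input read in any mock-treated library and 52.5 and 56.6 CPM in LPS-treated WT, at least 90.4-fold higher.

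All 8 peaks of the 7 cytokine and chemokine genes rose in both genotypes. Il12a and Il12b encode the chains of interleukin 12. The Il12a peak went from 0 reads in mock-treated PMs to 39.5 and 27.1 CPM in WT (at least 56.0-fold higher) and to 57.2 and 77.5 CPM in Adap-/- (at least 118-fold higher). Csf3, the granulocyte growth factor, went from 0 and 0.416 to 72.4 and 57.1 CPM in WT and from 0 and 0.359 to 101 and 117 CPM in Adap-/-. Csf1, the macrophage growth factor, rose less, from 37.6 and 32.4 to 280 and 225 CPM in WT (log2 change 2.98, SE 0.15).

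Of 32 Toll-like receptor and NF-kB peaks 24 rose and 4 fell in WT, and 25 and 4 in Adap-/-. Nfkbiz, an atypical inhibitor of NF-kB that acts in the nucleus, went from 40.7 and 46.2 to 821 and 736 CPM in WT (log2 change 4.29, SE 0.14). Tnfaip3, the feedback inhibitor A20, rose by 2.91 (SE 0.12) and Tlr2, a receptor of bacterial lipoproteins, by 3.04 (SE 0.12). The 8 m6A machinery genes gave 4 rises and no fall among 20 peaks in WT, and 5 rises and 2 falls in Adap-/-. Among the machinery peaks the rise was largest on Ythdf1, where a peak went from 82.1 and 82.8 to 164 and 178 CPM in WT (1.18, SE 0.13).

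Other groups had calls in both directions. Chromatin regulators had 20 peaks up and 15 down in WT (16% and 12%) and 19 and 17 in Adap-/- (15.2 and 13.6%) of 125 tested, smaller shares than the 29.0 and 22.8% of all CDS peaks in WT and 26.8 and 22.3% in Adap-/-. Zinc-finger genes had 20 up and 27 down in WT (14.0 and 18.9%) and 17 and 24 in Adap-/- (11.9 and 16.8%) of 143. Large cytoskeletal, collagen and integrin genes had 2 up and 19 down (3 and 21) of 42. Myh9, the heavy chain of nonmuscle myosin, went from 177 and 165 to 65.5 and 67.9 CPM in WT. Ribosomal protein genes had 4 peaks and none was called in either genotype. Of the immediate-early and feedback genes 6 of 11 peaks rose and 2 fell in WT (5 and 2 in Adap-/-), of small-GTPase regulators 5 and 10 of 31 (6 and 11), and of solute carriers 5 and 5 of 12 (4 and 3).

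Among the largest falls after LPS were those on ENSMUSG00000045071, St6gal1, Dhcr7, Tns1 and Klc4. The ENSMUSG00000045071 peak went from 4.65 and 2.50 CPM to no read in LPS-treated WT, at least 5.53-fold lower (edgeR adjusted p = 0.00237). St6gal1, a sialyltransferase, went from 124 and 118 to 2.44 and 3.28 CPM in WT and from 122 and 118 to 2.95 and 0.928 CPM in Adap-/- (log2 changes −5.26 and −5.72). Dhcr7, the last enzyme of cholesterol synthesis, fell by 5.02 on the log2 scale in WT. Klc4, a kinesin light chain, had peaks that fell in WT and in Adap-/- (log2 changes of the strongest −4.49 and −5.19).

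After LPS 110 CDS peaks were higher and 136 lower in Adap-/- (5.43 and 6.72%, beside 4.97 and 9.18% of all peaks). In mock-treated PMs 177 were higher and 70 lower (8.75 and 3.46%, beside 6.74 and 8.02%). Few of these changes were large: in LPS-treated PMs 24 higher and 15 lower peaks passed 2-fold, and in mock-treated PMs 46 higher and 12 lower. The counts fell to 92 without LPS-treated Adap-/- replicate 2 and to 72 without mock-treated Adap-/- replicate 2, and the calls are thus sensitive to single replicates.

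Prg4, which encodes the lubricating proteoglycan lubricin, had 4 peaks among those higher in Adap-/-. The peak at chromosome 1, 150330258 to 150330933, read 22.9 and 16.6 CPM in mock-treated WT and 78.7 and 170 in mock-treated Adap-/-. After LPS it read 24.4 and 26.2 CPM against 95.5 and 196 CPM (log2 difference 2.50, SE 0.35). Adgb, which encodes a large globin, read 4.47 and 6.08 CPM in LPS-treated WT and 27.7 and 39.4 in Adap-/-, and Mki67, the proliferation marker Ki-67, 0.813 and 4.21 against 13.3 and 17.6 CPM. Lower in Adap-/- besides Fyb1 were Zfp993 (24.0 and 23.4 against 4.80 and 4.64 CPM) and Lrrc32, which anchors latent TGF-beta (18.3 and 18.7 against 2.95 and 5.10 CPM). Among markers of other cells with CDS peaks, neither the B cell gene Cd22 nor the 2 peaks of the mesothelial gene Lrrn4 were called between genotypes, and Cd22 fell with LPS in both (log2 changes −2.17 and −1.71).

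Interferon-stimulated genes gave different counts by treatment. After LPS 22 of their 82 peaks were lower and 2 higher in Adap-/- (26.8 and 2.44%, beside 6.72 and 5.43% of all CDS peaks). In mock-treated PMs 26 were higher and 4 lower (31.7 and 4.88%, beside 8.75 and 3.46%). The Cmpk2 peak was lower by 1.48 on the log2 scale after LPS (SE 0.11, adjusted p = 1.77e-07), Ifit1bl1 by 1.30 and a peak of Ifit3b by 1.18. Slfn4, a schlafen family member of myeloid cells, went the other way, at 438 and 411 against 703 and 628 CPM. Among the cytokines Il12b was higher in LPS-treated Adap-/- (106 and 76.3 against 167 and 165 CPM), as were Il12a and Csf3 by 0.99 and 0.73, while Il1rn, the interleukin 1 receptor antagonist, was lower (41.5 and 30.9 against 17.3 and 16.7 CPM).

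Of 125 peaks of chromatin regulators 10 were higher and 1 lower in LPS-treated Adap-/-, and 18 and 0 with mock treatment. The higher shares were thus 8.0% with LPS and 14.4% for mock treatment, beside 5.43 and 8.75% of all CDS peaks. Ep300, a histone acetyltransferase, read 32.1 and 31.8 against 50.5 and 51.0 CPM after LPS, and Kmt2d, a histone methyltransferase, 7.32 and 7.49 against 17.3 and 19.0 CPM. Large cytoskeletal genes had 7 higher and 0 lower of 42 in both treatments (16.7 and 0.0%). Of the 32 Toll-like receptor and NF-kB peaks 1 was higher and 5 lower after LPS (3.12 and 15.6%, beside 5.43 and 6.72% of all CDS peaks). Tlr3 was at 137 and 149 against 84.1 and 77.5 CPM. Of the 20 m6A machinery peaks 3 were lower after LPS, and 3 were higher in mock-treated PMs. All 3 lower peaks lay on Ythdf1 (124 and 131 against 80.4 and 87.7 CPM at the one of lowest p), so they stand for 1 transcript. The next machinery gene by p, Prrc2a, had an edgeR adjusted p of 0.0529 at its best peak.

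The LPS response of the input differed between genotypes at 50 CDS peaks of 34 genes, 6 with a more positive and 44 with a more negative log2 change in Adap-/- (0.296 and 2.17%, beside 0.383 and 1.63% of all peaks). Interferon-stimulated genes accounted for 22 of them, all more negative (26.8% of their 82 peaks). At 39 of the 44 the input rose in both genotypes, by less in Adap-/-. The count was 9, all more negative, without mock-treated Adap-/- replicate 2.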

How the data were processed

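MeRIP-seq was read from 1 table of raw read counts on merged peaks, which the authors deposited for 8 IP and 8 input libraries. The submitters' processing notes name Bowtie2 2.2.8, MACS2 2.1.2, DiffBind 2.8 and the build GRCm39; how reads shared between genes were counted is not given in the sources used here. Columns of the authors' own comparisons were not used. The table lists 8094 lines for 7069 distinct peaks, and a peak was kept as CDS when every listing gave CDS. The members and lists were chosen with earlier results of these data known. The table's symbols were unreliable (1 symbol stood on 10 genes), so names came from its descriptions and RefSeq; 1292 of 1316 genes with a CDS peak were named and 24 kept by identifier.

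Counts were fitted across all peaks in edgeR 4.0.16 (quasi-likelihood test, TMM scaling, filterByExpr with a minimum of 10 and a total of 15, 1 mean per group; R 4.3.3) with Benjamini-Hochberg adjustment. The change of IP relative to input was tested on all 16 libraries (7058 peaks) and the input on its 8 (6794 peaks). Log2 ratios used CPM with a prior count of 2. Class medians were compared over replicates by exact permutation (scipy 1.17.1). DESeq2 1.42.0 and other scalings, filters, blocks and left-out replicates were alternatives. Fits were tested on simulated counts: for the input of LPS-treated Adap-/- against WT, edgeR recovered 80 of 100 peaks changed 2-fold and 99 of 100 changed 4-fold. Replicate numbers did not pair the samples: across groups, input differences between replicates 1 and 2 correlated at −0.0572 to 0.0629. IP and input differences of the same RNA samples correlated at −0.0984 to 0.0951.

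Genes were named by rule: for levels, the 8 CDS peaks whose lowest replicate was highest and the 4 whose highest replicate was lowest; for each comparison, up to 5 peaks each way with the largest fold past the threshold without overlap between groups, or, with none, the 3 each way of lowest unadjusted p; for lists, the 4 of lowest p; and the targeted gene with the genes the study followed. Sequences of peaks were not analysed here.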

Additional observations from a re-analysis of the deposited data

Results flagged for a closer look

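The input response to LPS differed between genotypes, by the fitted difference of the responses, at 50 CDS peaks, and the values below are log2 responses in Adap-/- minus WT. The response was more positive for B3gnt8, a glycosyltransferase (1.46), for 3 peaks of Idh1 (0.96, 0.91 and 0.89) and for ENSMUSG00000049091 (0.865). The 6 more positive calls came to 0 when LPS-treated Adap-/- replicate 1 or mock-treated Adap-/- replicate 2 was left out, and to 1 to 3 when mock-treated Adap-/- replicate 1, LPS-treated Adap-/- replicate 2 or either LPS-treated WT replicate was. These transcripts fell with LPS in both genotypes and fell less in Adap-/-, as in B3gnt8, from 67.4 and 56.1 to 6.10 and 6.08 CPM in WT and from 41.9 and 42.8 to 10.3 and 13.0 CPM in Adap-/-. The response was more negative for 2 peaks of Ifit3b (−2.51 and −2.41), an interferon-induced gene, for Ifi206 (−1.99), Tlr3 (−1.92) and Slfn4 (−1.80). At Slfn4 the level was higher in Adap-/- both before LPS (5.81 and 3.74 against 22.5 and 26.6 CPM) and after it (527 and 530 against 817 and 730 CPM). At Ifit3b mock-treated input was 0.775 to 3.95 CPM, so the difference rests on few reads before LPS. The same limit holds for Ifi206 (3 and 6 input reads in mock-treated WT, 1.16 and 2.5 CPM) and Tlr3 (8 and 6 reads, 3.1 and 2.5 CPM).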

How the results depend on the processing

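The ratio calls on CDS peaks, 0 in each comparison, rose most in DESeq2 and when mock-treated replicates were left out. DESeq2 gave 6 (LPS-treated Adap-/- against WT), 69 (LPS in WT), 28 (LPS in Adap-/-) and 3 (difference of the LPS response), upper-quartile scaling gave 1 for LPS-treated Adap-/- against WT (Arrb1), and the RNA-sample replicate block gave 3 and 1 for LPS in WT and Adap-/-. Without mock-treated Adap-/- replicate 2 and WT replicate 1, edgeR gave 22 and 23 for LPS; DESeq2 without them, chosen after seeing the data, gave 8 and 3 for genotype after LPS and in mock-treated PMs, 42 and 48 for LPS in WT and Adap-/-, and 7 for the difference. Leaving out single replicates gave 0 to 4 (genotype after LPS; 4 without LPS-treated Adap-/- replicate 2), 0 to 0 (mock-treated), 0 to 19 (LPS in WT; 19 without mock-treated WT replicate 2), 0 to 0 (LPS in Adap-/-) and 0 to 2 (difference). Input calls in DESeq2 were 125 and 117 for genotype after LPS and in mock-treated PMs, against 246 and 247. Leaving out single replicates gave 92 to 296, 72 to 243, 914 to 1049, 847 to 1013 and 9 to 47 in the same order of comparisons, where a group left with 1 sample is assumed to vary like the others. Blocking on the replicate number changed no count of input calls by over 1.5 times (227, 228, 1040, 981 and 40).

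The CDS median minus the start codon median was 0.275 with at least 20 input reads and turned to −0.004 and −0.009 without LPS-treated Adap-/- replicates 1 and 2, within −0.009 to 0.067 over single replicates. The LPS shift of CDS minus stop codon was 0.183 to 0.21 without single replicates, where the smallest exact p is 0.0571, and 0.214 without both mock-treated replicates. The genotype shift of −0.03 became 0.001 and 0.021 without LPS-treated WT replicates 1 and 2 and 0.013 without mock-treated Adap-/- replicate 1, in a range of −0.063 to 0.021. The cause was not tested in any of these cases. No named peak reversed: 565 of the input and 502 of the ratio values kept their side of the threshold, 72 lost it and 47 gained it. Peak sequences, the GGAC motif and exon lengths were not run, nor was a comparison with peaks listed at stop codons or start codons alone.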
